A study of Rattus norvegicus with 35 samples.

Results

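The comparison is of lungs of rats heterozygous for p53 with lungs of wild-type rats after both had received the carbon nanotube NM-403. Its members are the 11 arrays whose titles carry that exposure, 5 from p53 heterozygous rats (p53het NM-403) and 6 from wild-type rats (WT NM-403), of 35 arrays in the study. The rats were Sprague Dawley females, 12 weeks old when treatment began. NM-403, in the vehicle Pluronic, was instilled into the trachea once a week for 4 weeks at 0.25 mg per rat, and the labels do not say whether that is each instillation or the total. The accessory lobe of the lung was taken 3 days after exposure, and each array holds the RNA of 1 rat. The other 24 arrays come from rats of the same 2 genotypes. Those rats were given another nanotube, Mitsui-7, at the same dose (6 p53het, 6 WT) or the vehicle alone (6 p53het, 6 WT). Their values are set beside the comparison. They also enter its model and gene filter, and help to estimate the slide terms and the spread. The heterozygous rats are labelled GMO, and no source used here gives the kind of altered p53 allele, the breeding or whether the WT rats were littermates.

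p53 is a transcription factor that is stabilised when DNA is damaged and that switches on genes which stop the cell cycle, repair DNA or start cell death. Among the genes it acts on are Cdkn1a, which encodes the cyclin-dependent kinase inhibitor p21, and Mdm2, which encodes the ubiquitin ligase that marks p53 itself for degradation. Multi-walled carbon nanotubes, to which NM-403 and Mitsui-7 belong, persist in the lung and provoke inflammation there, with influx of macrophages and neutrophils, secretion of the matrix protein osteopontin and proliferation of cells. The comparison asks whether the transcript levels of an NM-403 exposed lung differ when 1 allele of p53 is altered.

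Values are log2 of the processed spot signal minus the 75th percentile of the same array, so that 0 is the level of a bright spot and a difference of 1 is 2-fold. Differences are p53het NM-403 minus WT NM-403 with the slide that carried the arrays as a block, and the p-values are limma's, with Benjamini-Hochberg adjustment over 24468 genes. Surfactant protein C (Sftpc) averaged 6.59 ± 0.29 in p53het and 6.55 ± 0.20 in WT lungs (SD, n = 5 and 6). The club cell secretoglobin Scgb1a1 averaged 5.00 ± 0.20 in p53het and 4.96 ± 0.08 in WT, and the alveolar type 1 marker Ager 5.88 ± 0.19 in p53het and 5.99 ± 0.14 in WT. All 3 were well above background on all 11 arrays. Between 66.1% and 73.6% of spots outside the controls were well above background. The lowest share was that of WT replicate 6, which was also the dimmest array (log2 75th percentile 9.59, the others from 10.22 to 11.02), and 71.0% or more were above background on the other arrays. WT replicate 5 carried skeletal muscle transcripts at a level no other exposed lung had, described with the cell type markers. The RNA was measured per unit of RNA in a lobe of mixed cells, so fewer cells of a type and less RNA per cell cannot be told apart.

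The canonical p53 targets Cdkn1a and Mdm2 did not pass between the 2 genotypes under NM-403. Cdkn1a stood at 0.19, 0.30, -0.04, 0.42 and 0.67 in the p53het lungs, against 0.21 at the lowest, 0.46 at the median and 0.62 at the highest in WT lungs. The groups overlapped, and 2 p53het lungs were below and 1 was above all WT lungs. The difference was -0.19 ± 0.10 (SE, unadjusted p = 0.0705, 95% interval -0.40 to 0.02). Within the 4 slides that held both genotypes it was -0.14, -0.52, -0.25 and -0.10. Here and for other genes below, the first such value sets the mean of p53het replicates 2 and 5 against WT replicate 3. Each of the others sets a single p53het lung against a single WT lung. All 4 values of Cdkn1a were negative, although p53het replicate 5 (0.67) lay above all WT lungs. Mdm2 had values of -0.59, -1.05, -0.87, -0.92 and -1.13 in p53het lungs, and -0.96, -0.72 and -0.53 as the lowest, median and highest of WT lungs. These too overlapped, with a difference of -0.09 ± 0.07 (unadjusted p = 0.230). NM-403 against vehicle did not pass for Cdkn1a in either genotype, with log2 values of -0.03 in p53het and 0.12 in WT rats, nor for Mdm2, with -0.06 and 0.08.

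Tp53inp1, which encodes a stress-induced nuclear protein that promotes the p53 response and autophagy, was the only measured target whose groups did not overlap. It stood at -1.13, -0.91, -1.13, -0.81 and -1.13 in p53het lungs, against -1.62, -1.37 and -1.14 as the lowest, median and highest of WT lungs. The difference of 0.30 ± 0.11 had an unadjusted p of 0.00867 and did not pass over all genes. Of all genes, 0.2% had groups without overlap. The same gene differed by 0.27 (unadjusted p = 0.0106) between p53het and WT vehicle controls and by 0.18 (0.0739) between p53het and WT Mitsui-7 lungs, which are other rats, and over these 24 arrays by 0.23 (0.00337). Within the 4 slides that held both NM-403 genotypes its difference was 0.30, 0.01, 0.30 and 0.39. Aen, an exonuclease gene that p53 induces, ran the same way (0.27, unadjusted p = 0.0553, groups overlapping).

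Of 38 p53 targets listed, 34 were measured. Of these 22 had higher and 12 lower estimates in p53het lungs, the median was 0.03 (all genes -0.01), and 0 were called, which is also the share over all genes (0%). Only Tp53inp1 had an unadjusted p under 0.05, and the 95% interval of every one of the 34 stayed within 2-fold, as it did for 86.5% of all genes. The direction of the list turned with the setting. Its median was -0.02 with normexp background correction (19 of 34 lower), -0.01 without p53het replicate 3 (17 higher, 17 lower) and -0.03 without p53het replicates 2 and 3. It was 0.01 without p53het replicate 2 and 0.02 without WT replicate 1. Of 16 measured genes that regulate p53, 9 were higher and 7 lower, with a median of 0.03. Chek1, the checkpoint kinase acting on p53 and Cdc25, had an unadjusted p of 0.0307 (0.27 ± 0.12). Its difference between vehicle controls was 0.40 (unadjusted p = 0.00111), and its sign under NM-403 turned with normexp background correction (-0.09).

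**Figure D1:**
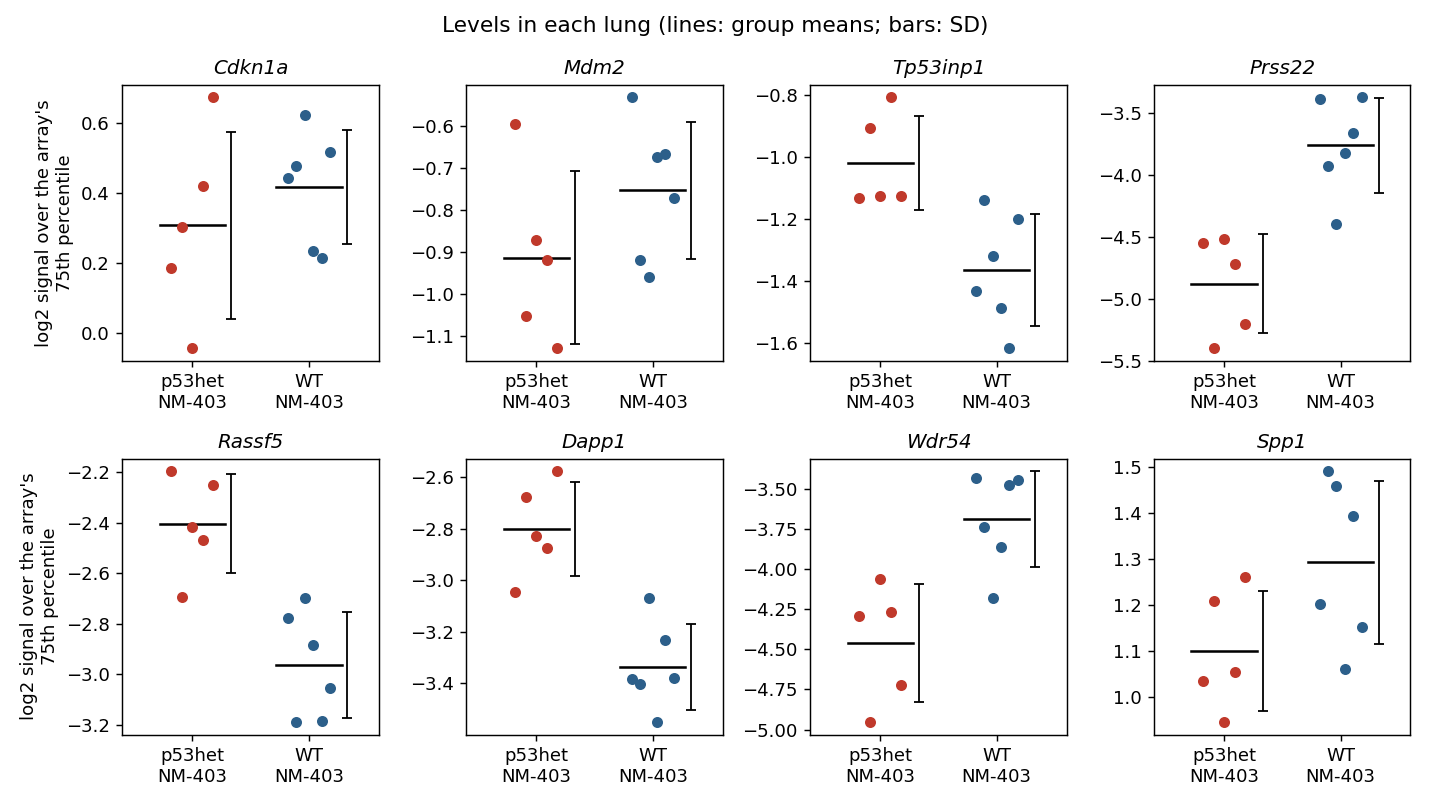
Levels of 8 genes in each lung exposed to NM-403, as log2 signal over the array's 75th percentile, for p53het (left, 5 rats) and WT (right, 6 rats). Points are single lungs, lines group means and bars SD. Tp53inp1, Prss22, Rassf5 and Dapp1 show groups that do not overlap, while those of Cdkn1a, Mdm2, Wdr54 and Spp1 overlap.

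Over all genes, none of 24468 passed between p53het NM-403 and WT NM-403 lungs in limma (smallest adjusted p 0.140). At an unadjusted p under 0.05 there were 763 genes (3.12%), of which 349 (1.43%) were higher and 414 (1.69%) lower in p53het lungs. The groups of arrays did not overlap for 49 genes (0.2%), 25 above and 24 below WT. Estimates ranged from -3.47 to 1.96 with a median of -0.01 and quartiles of -0.11 and 0.08, and 140 genes (0.572%) had an estimate past 2-fold. The precision sets what these counts can say: the median standard error was 0.14, and the 95% interval lay wholly within 2-fold for 21163 genes (86.5%) and within 1.5-fold for 16928 (69.2%). For the other genes the interval reached past 2-fold in at least 1 direction.

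**Figure D2:**
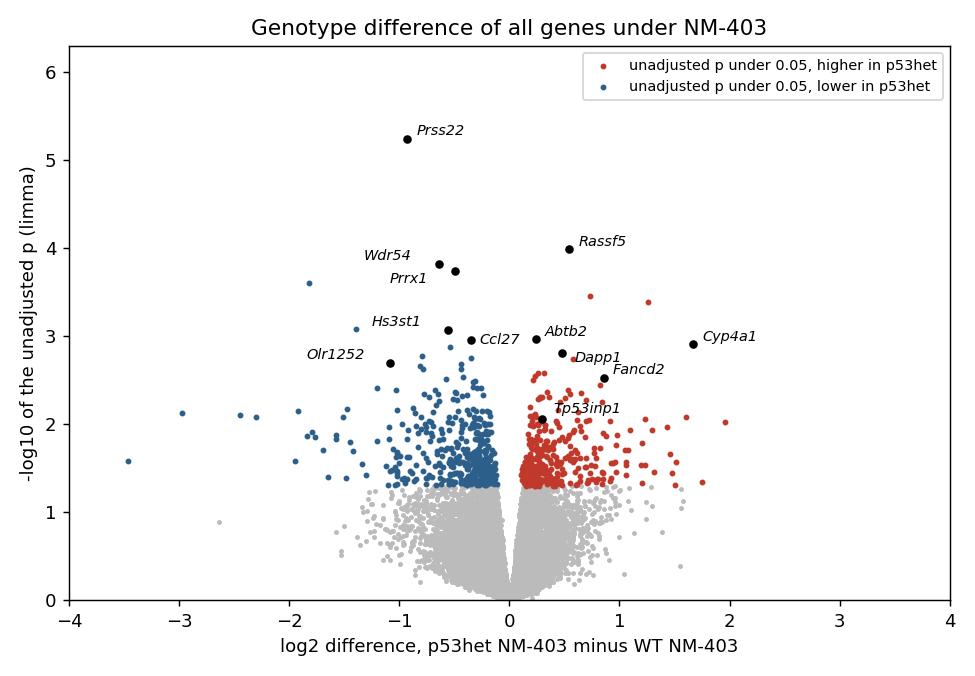
Log2 difference of p53het NM-403 minus WT NM-403 lungs (x axis) against -log10 of the unadjusted limma p (y axis) for 24468 genes. Coloured points have an unadjusted p under 0.05, red higher and blue lower in p53het, and 12 genes are labelled. No gene passed after adjustment, and Prss22 has the smallest p.

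Prss22, a tryptase-like serine protease gene of airway epithelium, had the smallest p. It stood at -4.54, -5.40, -4.52, -4.72 and -5.20 in p53het lungs, against -4.39, -3.74 and -3.37 as the lowest, median and highest of WT lungs. All 5 p53het lungs lay below all 6 WT lungs. The difference was -0.93 ± 0.16, which makes the p53het level 0.526 times the WT level (unadjusted p = 5.72e-06, adjusted p = 0.140). Within the 4 shared slides it was -0.91, -0.59, -1.16 and -1.35. NM-403 raised Prss22 against vehicle in both genotypes, by 0.90 in p53het (adjusted p = 0.00124) and by 1.54 in WT rats (adjusted p = 5.62e-07).

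Set beside the other exposures, Prss22 differed less between the genotypes, and in vehicle controls in the same direction. Under Mitsui-7 it averaged -1.995 ± 0.40 in p53het and -2.006 ± 0.47 in WT lungs (SD, n = 6 each). In vehicle controls it averaged -5.71 ± 0.51 and -5.33 ± 0.37, p53het and WT, with a difference of -0.28 (unadjusted p = 0.0749). The genotype difference under NM-403 departed from that in vehicle by -0.64 (limma, unadjusted p = 0.00762). It departed from that under Mitsui-7 by -0.95 (limma, unadjusted p = 0.000222), and neither passed over all genes. Prss22 was picked for its smallest p under NM-403, and both departures reuse that value.

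Rassf5, a Ras-binding adaptor of lymphocyte adhesion, and Dapp1, an adaptor of B cell receptor signalling, were higher in all p53het lungs than in any WT lung. Rassf5 had -2.20, -2.69, -2.42, -2.47 and -2.25 in p53het, against -3.19, -2.97 and -2.70 as the lowest, median and highest of WT (0.54 ± 0.12, unadjusted p = 0.000102). Dapp1 had -3.05, -2.68, -2.83, -2.88 and -2.58 in p53het, against -3.55, -3.38 and -3.07 of WT (0.48 ± 0.14, unadjusted p = 0.00155). For both genes the margin between the groups was narrow, the lowest p53het lung standing next to the highest WT lung.

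Wdr54 encodes a WD repeat protein. Its values were -4.30, -4.95, -4.06, -4.27 and -4.72 in p53het lungs, against -4.18, -3.61 and -3.44 as the lowest, median and highest of WT lungs. Only p53het replicate 3 lay within the WT range. The difference was -0.64 ± 0.14 (unadjusted p = 0.000149). Wdr54 was also lower in p53het lungs under Mitsui-7 (-0.75, adjusted p = 0.0383), stood at -0.24 in vehicle controls, and passed when the genotype difference was averaged over the 3 exposures (-0.54, adjusted p = 0.00643). Averaged in this way only Wdr54, Ubxn11 and Spata17 passed, 0.0123% of genes.

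Of the 24 genes with a symbol and the smallest p, 11 were higher and 13 lower in p53het lungs, and in 6 the groups did not overlap. Signalling and matrix genes among the lower ones were Prrx1, a homeobox factor of mesenchyme (-0.50 ± 0.11), Hs3st1, a heparan sulfate sulfotransferase (-0.56 ± 0.15), Traf6, the ubiquitin ligase of Toll-like receptor signalling (-0.44 ± 0.13), F3, the tissue factor that starts coagulation (-0.42 ± 0.13), Pkib, an inhibitor of protein kinase A (-0.54 ± 0.15), and Ggt1, which breaks down extracellular glutathione (-0.32 ± 0.10). Ccl27, a T cell chemokine (-0.35 ± 0.10), Llph (-0.33), Ccdc66 (-0.26) and Btbd2 (-0.67) were lower as well. Higher ones were Tef, a clock output factor (0.58 ± 0.17), Nedd4l, the ubiquitin ligase that limits the epithelial sodium channel (0.31 ± 0.09), Nup210 of the nuclear pore (0.26), Oaz2, an antizyme of ornithine decarboxylase (0.23), Ppox of haem synthesis (0.22), Abtb2 (0.24) and Tcam1 (0.83 ± 0.26).

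Some of these genes were dim. Fancd2, of the Fanconi anaemia repair pathway (0.86 ± 0.26), was well above background on 4 of 5 p53het and 2 of 6 WT arrays, and its sign turned with normexp background correction (-0.07). Tcam1 was above background on 5 of 5 p53het and 5 of 6 WT arrays. Cyp4a1, a fatty acid hydroxylase, was above background on 3 of 5 p53het arrays and 0 of 6 WT arrays. Its mean was 1.48-fold higher in p53het with dim WT arrays raised to the lowest signal well above background. Within the 4 shared slides its log2 difference was 1.64, 0.38, 2.66 and 0.84. The olfactory receptor gene Olr1252 was above background on 0 of 5 p53het and 5 of 6 WT arrays. Its measured group means were -7.99 in p53het and -6.65 in WT. With dim p53het arrays raised in the same way, its mean was 2.14-fold lower in p53het. The difference with slide as a block ran from -1.29 to -0.83 when single NM-403 arrays were left out. For these folds an array of the group with none above background took its lowest signal among probes well above background. Where the probe's own signal was higher, that was kept. Arrays of the other group kept their own signal, and the means had no term for slide. The folds are therefore estimates and not lower limits of the difference.

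The genotype difference over the other 24 arrays comes from other rats but shares the slide terms and the spread of the same fit. It had the same sign for 14 of the 24 genes (58.3%), against 49.9% of all genes, and without a term for slide for 16 (66.7%), against 59.8%. The same sign with an unadjusted p under 0.05 was seen for 4 of them (16.7%), Wdr54, Prrx1, Hs3st1 and Traf6, against 4.24% of all genes. For Prrx1 the difference was -0.32 (unadjusted p = 0.0059) under Mitsui-7 and -0.14 in vehicle, and for Hs3st1 it was -0.30 in each (unadjusted p = 0.0431 and 0.0386).

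NM-403 against vehicle shows what the exposure did in each genotype. Against their own vehicle controls, 942 genes (3.85%) passed in p53het rats, 544 higher (2.22%) and 398 lower (1.63%), and 1857 (7.59%) in WT rats, 1077 higher (4.4%) and 780 lower (3.19%). The p53het arm has 1 array fewer, and the difference of the responses, tested gene by gene, called 0 genes (limma, smallest adjusted p 0.982, 934 at an unadjusted p under 0.05). Both counts depend on the processing: without a term for slide they were 372 in p53het and 767 in WT rats, and with array weights 1456 and 3471. The p53het count was 445 to 613 without p53het NM-403 replicate 2, 3 or 5 or p53het control replicate 2, and the WT count was 967 without WT NM-403 replicate 6 and 1212 without WT control replicate 1.

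Spp1, which encodes osteopontin, rose in both. It stood at 1.03, 1.21, 0.95, 1.05 and 1.26 in the exposed p53het lungs, and at 1.06, 1.30 and 1.49 as the lowest, median and highest of exposed WT lungs. Its response was 4.16 in p53het (adjusted p = 2.38e-08) and 4.10 in WT (adjusted p = 6.33e-09). The genotype difference was -0.20 ± 0.34, with an interval of -0.90 to 0.50 that stays within 2-fold.

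Cell division genes rose in both genotypes. Of 37 mitotic cell cycle genes 27 rose and 0 fell in p53het (median 0.92), and 28 rose and 1 fell in WT rats (median 0.86). Top2a, a topoisomerase of dividing cells, rose by 1.03 (adjusted p = 0.000382) in p53het and by 1.23 (1.82e-05) in WT rats, Cdk1, the kinase that drives entry into mitosis, by 1.04 and 1.11, and Birc5, an inhibitor of apoptosis at the spindle, by 1.02 and 0.84. Of 31 DNA replication and repair genes 18 rose and 0 fell in p53het, and 20 rose and 0 fell in WT rats, with a median of 0.51 in each.

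Immune lists were unlike in how many genes passed, beside 2.22% of all genes higher in p53het and 4.4% in WT rats. Acute phase genes rose for 7 of 13 in each genotype and fell for 1 in p53het, and complement genes rose for 7 of 25 in each. Plasma cell markers rose for 5 of 9 in each, with medians of 0.57 in p53het and 0.54 in WT. Neutrophil markers rose for 2 of 14 in p53het and 6 of 14 in WT rats, and S100a9, a subunit of the neutrophil protein calprotectin, by 1.53 (adjusted p = 0.00514) and 2.12 (5.53e-05). MHC class II genes rose for 6 of 13 in p53het and 1 of 13 in WT rats. Of 31 chemokine ligands 5 rose and 3 fell in p53het, and 6 rose and 1 fell in WT rats. Macrophage and monocyte markers rose for 1 of 17 in p53het and 4 of 17 in WT rats. Few or no genes passed in the interferon, MHC class I, T cell and B cell lists. Interferon-stimulated genes rose for 0 of 35 in p53het and 1 in WT rats, MHC class I genes for 0 of 29 in each, and T cell markers for 1 of 17 in each, with medians of -0.02 and 0.04. Of 12 B cell markers 1 fell in p53het and 1 rose in WT rats, and of 23 inflammatory cytokines 2 rose and 2 fell in p53het and 5 rose in WT rats. A difference between such counts is no test of the response, and no gene's response differed after adjustment.

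Markers of lung structure fell in part, beside 1.63% of all genes lower in p53het and 3.19% in WT rats. Endothelial markers fell for 4 of 15 in p53het and 5 of 15 in WT, alveolar type 1 markers for 2 of 10 and 5 of 10, and mesothelial markers for 1 of 9 and 4 of 9. The list medians were -0.29 in each genotype for endothelial, -0.27 and -0.28 for alveolar type 1, and -0.36 and -0.33 for mesothelial markers, p53het and WT. Alveolar type 2 markers rose for 1 of 12 in p53het and 2 of 12 in WT rats, with medians of 0.14 and 0.16.

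A further view takes the genes that answered most to the other nanotube, Mitsui-7, in the 24 other arrays: 30 that rose and 15 that fell most there, where 36.4% of genes passed. They were chosen against the same vehicle controls as the NM-403 responses given here, so those responses are no independent evidence. The genotype difference under NM-403 sets no control array against another, but it shares the slide terms and the spread of the same fit. Under NM-403 18 of the 30 rose in p53het and 19 in WT rats, 15 of them in both, with median responses of 1.27 and 1.39. Over all genes 2.22% rose in p53het and 4.4% in WT rats. Between the genotypes, 10 of the 30 had higher and 20 lower estimates in p53het lungs, with a median of -0.24. None was called, 4 had an unadjusted p under 0.05 (3.12% of all genes), and for 11 the interval stayed within 2-fold. Besides Prss22 the 4 were Mt3, a metal-binding metallothionein (-0.85 ± 0.37, unadjusted p = 0.0293), the aquaglyceroporin Aqp3 (-0.60 ± 0.28, 0.0427) and the secretin receptor Sctr (-0.93 ± 0.39, 0.0237), which was not well above background on any of the 11 arrays.

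Mt3 shows the size of the spread. It had -5.70, -5.34, -5.41, -4.87 and -3.89 in p53het lungs, against -4.76, -4.14 and -3.73 as the lowest, median and highest of WT lungs, and rose against vehicle by 1.66 (adjusted p = 0.00717) in p53het and 2.30 (9.63e-05) in WT rats. Only p53het replicate 5 lay within the WT range. The widest estimate was that of Itln1, an intelectin of mucous cells (-2.64, interval -6.10 to 0.82), which was above background on 1 of 5 p53het and 3 of 6 WT arrays.

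Of the 15 genes that Mitsui-7 lowered, 4 were called under NM-403 in p53het and 4 in WT rats, 1 in both. Over all genes the shares called were 3.85% in p53het and 7.59% in WT rats. Among the WT calls, that of Defb5 was a rise. In the genotype comparison 3 were higher and 12 lower, with a median of -0.16. Defb5, a beta-defensin gene, had 1.45, -2.95, 2.20, 0.27 and 0.60 in p53het, against 1.91, 2.56 and 3.58 in WT lungs (-2.31 ± 0.81, unadjusted p = 0.00821). Only p53het replicate 3 reached the WT range, and p53het replicate 2 lay far below the others. NM-403 against vehicle gave -0.90 (adjusted p = 0.587) in p53het and 2.50 (adjusted p = 0.0392) in WT rats.

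**Figure D3:**
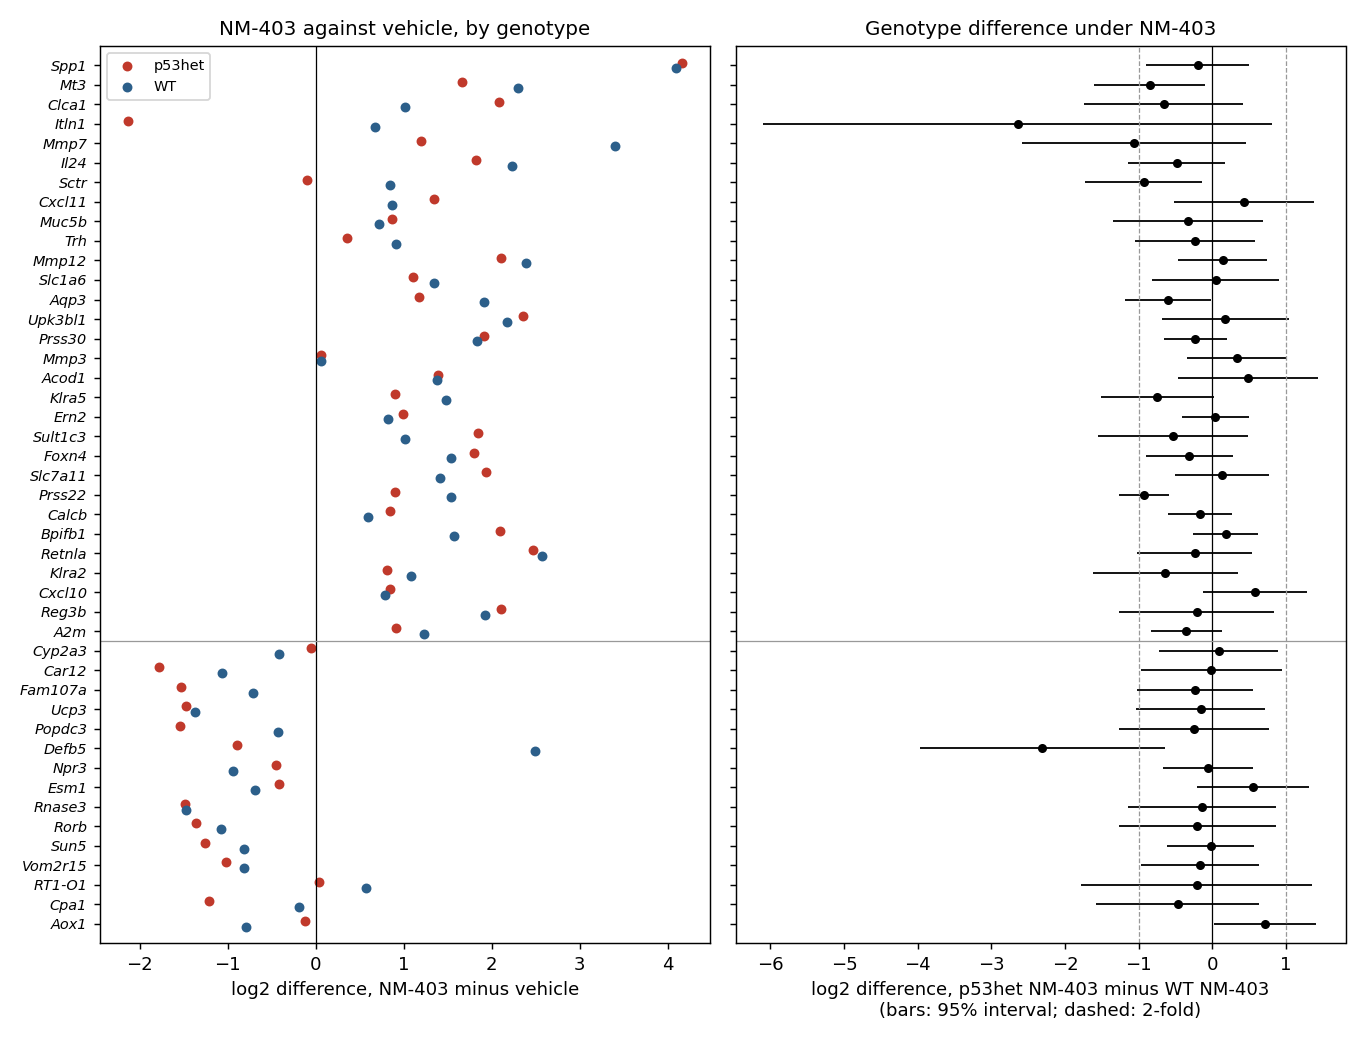
Left, log2 difference of NM-403 minus vehicle in p53het (red) and WT (blue) rats for 45 genes chosen by Mitsui-7 against the same vehicle controls, 30 raised (above the line) and 15 lowered by Mitsui-7. Right, p53het NM-403 minus WT NM-403 with its 95% interval, dashed lines marking 2-fold. Red and blue points lie close together for Spp1, Mmp12 and Retnla, and among intervals that stay off 0 are those of Prss22, Mt3 and Defb5.

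Genes named for a difference between responses had small p-values but did not pass. Ccl27 stood at -2.10, -2.74, -2.18, -2.33 and -2.44 in p53het NM-403 lungs, against -2.34, -1.81 and -1.59 as the lowest, median and highest of WT. The genotype difference was -0.35 under NM-403 and 0.35 under Mitsui-7, and these departed from each other by -0.70 (unadjusted p = 1.19e-05, adjusted p = 0.290), the smallest p of that comparison. NM-403 lowered Ccl27 in p53het rats (-0.50, adjusted p = 0.00181), while the value in WT rats was -0.07 (adjusted p = 0.726).

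Against vehicle the smallest p-values included those of Mt2A, a metallothionein, F3, Tcam1 and Sept7, a septin of the cytoskeleton. Mt2A rose by 0.79 in WT rats (adjusted p = 1.75e-05), against 0.22 (0.274) in p53het. Its genotype difference was -0.13 under NM-403 and 0.44 in vehicle (difference of the 2 -0.58, unadjusted p = 0.000582). F3 rose by 0.67 in WT rats (adjusted p = 0.000828), against 0.01 (0.98) in p53het (-0.66, unadjusted p = 0.000871). Tcam1 rose by 1.06 in p53het rats (adjusted p = 0.0144), against -0.41 (0.327) in WT (1.47, unadjusted p = 0.000261). Sept7 fell by 0.36 in p53het rats (adjusted p = 0.00717), against 0.11 (0.433) in WT (-0.46, unadjusted p = 0.000199). Fam25a differed by -0.05 under NM-403 and by 1.11 under Mitsui-7 (adjusted p = 0.00978 there; difference of the 2 -1.16, unadjusted p = 8.63e-05).

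Among immune genes, MHC class II presentation had all 13 measured members higher in p53het NM-403 lungs, with a median of 0.19. RT1-DMb, a subunit of the peptide editor DM, had the only unadjusted p under 0.05 (0.28 ± 0.13, 0.0338), and RT1-Bb, a class II beta chain, the largest estimate (0.38 ± 0.29, but -0.19 with the mean of its probes). The list mean per lung, as a deviation from each gene's mean over the 11 lungs, was -0.20, 0.31, 0.20, 0.05 and 0.32 in p53het lungs, against -0.29 to 0.07 in WT lungs, so the groups overlapped. Without p53het replicates 2 and 3, which stand apart in clock genes as described next, 7 of 13 were higher and the median was 0.10. In vehicle controls the list's median was -0.02, and under Mitsui-7 it was -0.18. With normexp background correction it was 0.11 under NM-403.

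T cell markers were higher for 15 of 17 (median 0.15), with Cd2, an adhesion receptor of T cells, at 0.45 ± 0.17 (unadjusted p = 0.0149) and Cd8a, a co-receptor of cytotoxic T cells, at 0.27 ± 0.13 (0.0477). Their median was 0.31 between vehicle controls and -0.09 under Mitsui-7. Under NM-403 it was 0.04 with normexp background correction (10 of 17 higher, 0 with an unadjusted p under 0.05), 0.10 with the replicate block, 0.08 without p53het replicate 5 and 0.25 without p53het replicate 3. Ccr7, the receptor that guides lymphocytes and dendritic cells to lymph nodes, was higher in all 5 p53het lungs, at -5.13, -5.01, -4.86, -5.13 and -4.94, than in WT lungs, at -6.28, -5.40 and -5.15 (0.64 ± 0.23, unadjusted p = 0.0105, with 5 of 6 WT arrays above background). B cell markers were higher for 7 of 12 (0.11), macrophage markers for 9 of 17 (0.02), neutrophil markers for 4 of 14 (-0.11) and interferon-stimulated genes for 28 of 35 (0.10). The first 3 of these medians changed sign with the setting. That of B cell markers was -0.06 with normexp, -0.03 without a term for slide and -0.0039 without p53het replicate 1. That of macrophage markers was -0.07 with normexp and ran from -0.03 to 0.10 without single arrays, and that of neutrophil markers was 0.03 without WT replicate 6 and 0.03 without p53het replicate 1. The interferon median was 0.05 with normexp, 0.05 without p53het replicate 3 and 0.07 without WT replicate 4. Ncf1, a subunit of the phagocyte NADPH oxidase, was the neutrophil marker with an unadjusted p under 0.05 (0.43 ± 0.15, 0.00961).

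Of 31 chemokine ligands 12 were higher and 19 lower, with a median of -0.14. The median was -0.06 without p53het replicate 2 and -0.09 without p53het replicate 4. At an unadjusted p under 0.05, 4 were lower, against 1 without p53het replicate 2 and 2 without p53het replicate 3 or WT replicate 6. Besides Ccl27, the neutrophil attractant Cxcl3 (-0.66 ± 0.27), the B cell attractant Cxcl13 (-0.55 ± 0.23) and Cxcl16, a ligand of the T cell receptor CXCR6 (-0.22 ± 0.10), were lower with an unadjusted p under 0.05. Ccl22, which attracts type 2 helper and regulatory T cells, was higher (0.38 ± 0.15, 0.0187), and NM-403 raised it by 0.97 (adjusted p = 0.000202) in p53het, against 0.37 (0.102) in WT rats.

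**Figure D4:**
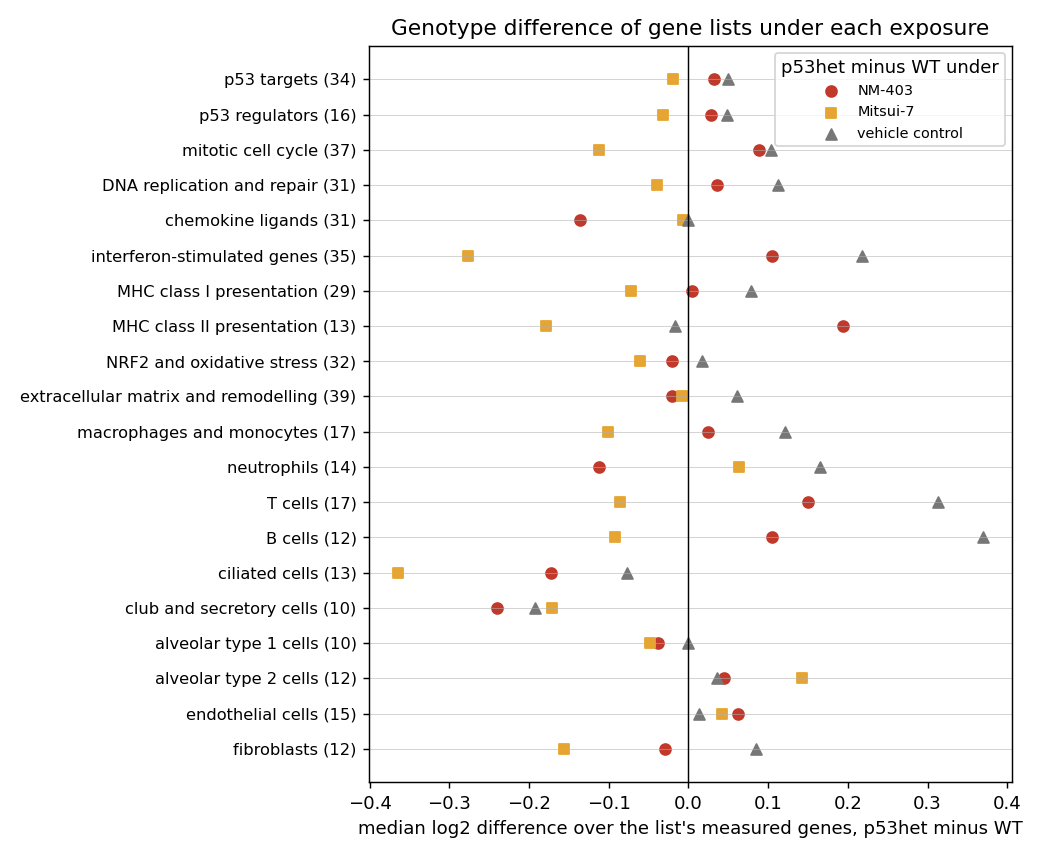
Median log2 difference, p53het minus WT, over the measured genes of 20 lists under NM-403 (circles), Mitsui-7 (squares) and vehicle (triangles), with the number of genes in brackets. Under NM-403 the ciliated list lies at -0.17 and the club and secretory list at -0.24, the MHC class II list at 0.19, and the p53 targets at 0.03.

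Ciliated cell markers had lower estimates in p53het NM-403 lungs for all 13 measured members of 14, with a median of -0.17, while 53.6% of all genes had lower estimates. Dynlrb2, a dynein light chain (-0.33 ± 0.12, unadjusted p = 0.0108), Spag6, a protein of the ciliary central apparatus (-0.32 ± 0.13, 0.0205), and Ccdc113 (-0.23 ± 0.10, 0.0329) had unadjusted p-values under 0.05, and 0 were called. Foxj1, the factor that drives motile cilia, stood at -0.17 ± 0.12 (unadjusted p = 0.156). The list mean per lung was -0.06, -0.29, -0.05, -0.03 and -0.07 in p53het, against -0.05 to 0.20 in WT lungs, and the groups overlapped. Over the alternatives the list median ran from -0.22 to -0.13, and without a term for slide 11 of 13 were lower. At an unadjusted p under 0.05 there was 1 gene without WT replicate 6 and 0 without WT replicates 5 and 6. In vehicle controls 12 of 13 were lower (median -0.08, all genes 43.5% lower), and under Mitsui-7 all 13 (median -0.36, all genes 66.9% lower), 10 of them with an unadjusted p under 0.05 (7.8% of all genes lower at that level).

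Other genes are named here after their values were seen. Spata17, which encodes a calmodulin-binding protein known from testis, was at -0.53 ± 0.21 under NM-403 (unadjusted p = 0.0187) and passed under Mitsui-7 (-1.07, adjusted p = 0.0383), and Ubxn11 was at -0.18 ± 0.09 (unadjusted p = 0.0397) and passed there too (-0.61, adjusted p = 0.000825). Of the 17 genes called between genotypes under Mitsui-7 (0.0695%), 12 had the same sign under NM-403, against 53.2% of all genes. With an unadjusted p under 0.05 as well there were 4, Wdr54, Spata17, Ubxn11 and Duox1, an oxidase of airway epithelium (0.37 ± 0.17). Of all genes 3.12% had such a p under NM-403, in either direction. The set of 17 depends on the processing, with 2 genes without a term for slide and 1 with normexp background correction. Club and secretory markers were lower for 9 of 10 measured (median -0.24), with Lypd2 at -0.29 ± 0.12 (unadjusted p = 0.0191). Without a term for slide 6 of the 10 were lower, and the median was -0.15 without WT replicate 6 and -0.10 without p53het replicates 2 and 3. Alveolar type 2 markers (12 measured, median 0.04), alveolar type 1 markers (10, -0.04) and endothelial markers (15, 0.06) had all their intervals within 2-fold.

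Clock genes set 2 of the p53het lungs apart, as was seen after their values were known. The circadian clock is a loop in which Arntl (Bmal1) with Clock or Npas2 activates the Per, Cry and Nr1d genes and the output factors Dbp and Tef through E-boxes, and the Nr1d proteins repress Arntl and Npas2. Dbp stood at -0.18, 1.28, 2.63, -0.46 and -0.81 in p53het lungs, against -0.77, -0.35 and 0.13 as the lowest, median and highest of WT lungs. Nr1d1, the repressor REV-ERB alpha, had -4.83, -2.05, -2.05, -4.89 and -4.66 in p53het, against -5.40, -4.37 and -3.45 in WT. The high lungs were p53het replicates 2 and 3 for both genes.

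The activators ran the other way in the same lungs. Arntl had -1.54, -2.12, -2.68, -1.44 and -1.28 in p53het, against -1.86, -1.56 and -1.08 as the lowest, median and highest of WT, and Npas2 had -1.52, -2.38, -2.64, -1.63 and -1.68, against -1.62, -1.46 and -1.38. Replicates 2 and 3 were the lowest of all 11 lungs for both. Of 18 measured clock genes 13 were higher and 5 lower in p53het lungs (median 0.15), and Tef (0.58), Npas2 (-0.51) and Nfil3, a repressor of the same promoters as Dbp (-0.38), had unadjusted p-values under 0.05. The median was 0.07 without p53het replicate 3 and 0.28 without p53het replicate 4. Without replicates 2 and 3 it was -0.02 with 7 higher and 11 lower, Dbp was at 0.12, against 1.09 with them, Npas2 at -0.13 and Tef at 0.42. No source used here gives the hour at which each rat was killed, and its part was not tested. Wide ranges of Dbp were also seen among p53het controls (-0.94 to 2.68) and p53het Mitsui-7 lungs (-1.04 to 1.85), against -0.94 to 0.24 in WT controls and -0.46 to 0.49 in WT Mitsui-7 lungs.

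The promoters of Tef and Arntl are shown because these genes stand on opposite arms of the loop and each holds a motif. Each stretch is the 250 bases before the annotated start in RefSeq (build GRCr8), 5′ to 3′ on the gene's strand. Capitals mark an E-box (CACGTG, the site of the Clock and Arntl pair) in Tef and a ROR element (TAGGTCA on either strand, the site that Nr1d proteins and RORs share) in Arntl. Tef lies at chr7:115206577-115206826 (+ strand) and Arntl at chr1:176766078-176766327 (+ strand).
Tef: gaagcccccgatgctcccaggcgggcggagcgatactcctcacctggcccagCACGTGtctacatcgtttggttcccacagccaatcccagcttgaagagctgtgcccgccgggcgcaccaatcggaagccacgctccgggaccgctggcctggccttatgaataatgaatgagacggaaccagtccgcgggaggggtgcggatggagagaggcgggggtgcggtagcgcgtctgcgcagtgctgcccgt
Arntl: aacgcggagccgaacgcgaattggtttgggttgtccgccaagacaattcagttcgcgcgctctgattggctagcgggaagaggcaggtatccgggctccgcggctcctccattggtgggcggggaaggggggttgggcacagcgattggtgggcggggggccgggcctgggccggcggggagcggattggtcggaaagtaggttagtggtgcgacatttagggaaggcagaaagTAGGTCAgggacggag
Of 15 measured clock genes with a promoter entry, 4 held the E-box and 1, Arntl, the ROR element in this window. A gene counted if any of its promoters matched, while the shares over all, 5.59% and 2.26%, are of 33469 single promoters. Dbp and Npas2 held neither motif here. Nr1d1 held the E-box in 1 promoter entry and not in another. A match is a description of letters, and no binding was measured.

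**Figure D5:**
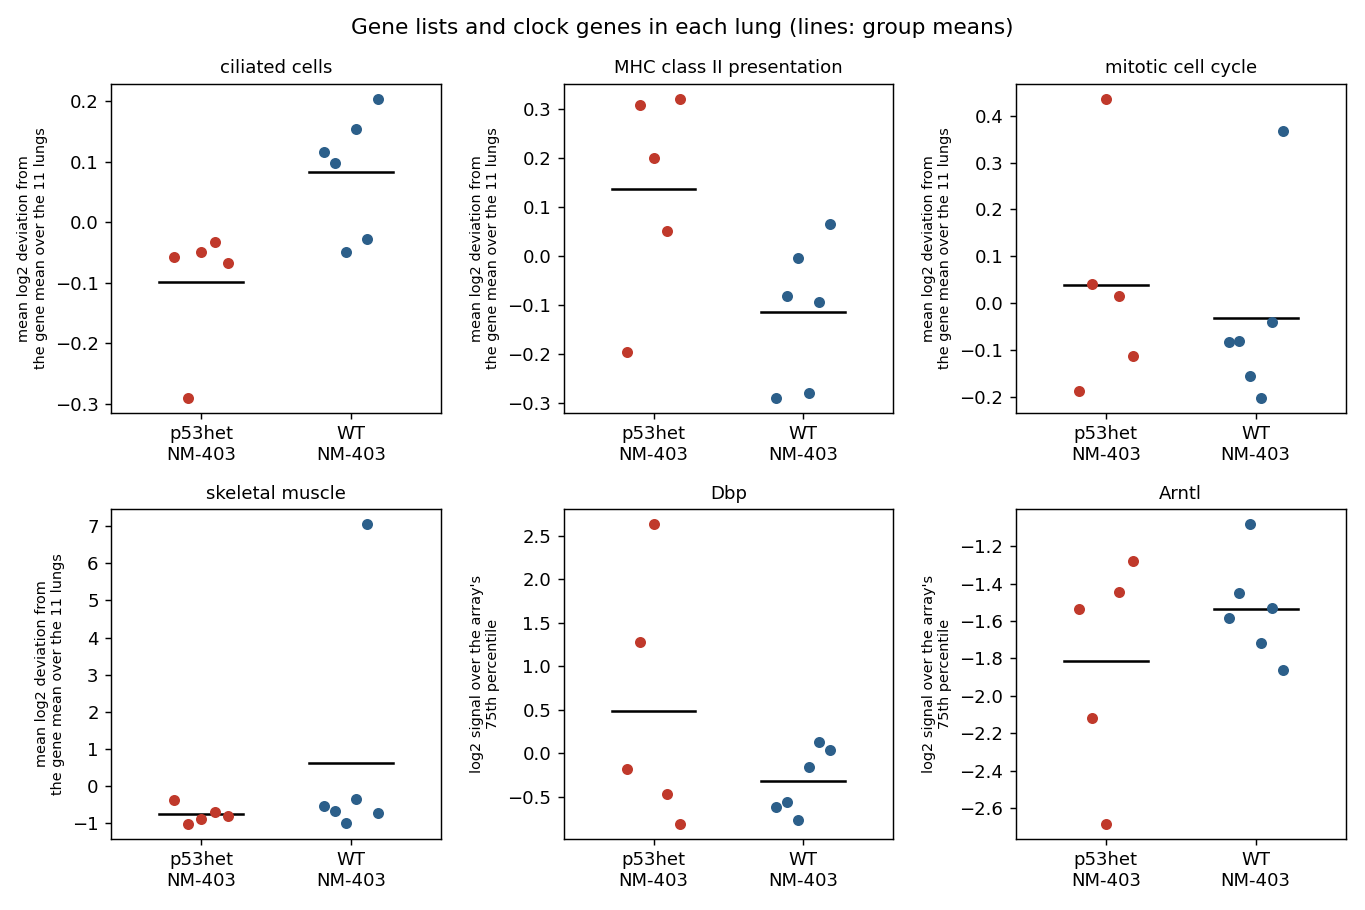
Values in each lung for p53het (left, 5 rats) and WT (right, 6 rats) under NM-403. The first 4 panels give the mean log2 deviation of a list's genes from their mean over the 11 lungs and the last 2 the log2 signal of Dbp and Arntl over the 75th percentile, with lines at group means. WT replicate 5 stands at 7.05 for skeletal muscle, and p53het replicates 2 and 3 are highest for Dbp and lowest for Arntl.

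Mitotic genes were higher for 29 of 37 in p53het NM-403 lungs with a median of 0.09, and none had an unadjusted p under 0.05. The list mean was 0.44 in p53het replicate 3 and 0.37 in WT replicate 6, against -0.20 to 0.04 in the other 9 lungs. Its direction turned without p53het replicate 3 (22 of 37 lower, median -0.02), without p53het replicates 2 and 3 (26 of 37 lower, median -0.10) and with normexp background correction (median -0.01), and the median reached 0.18 without p53het replicate 1. DNA replication and repair genes were higher for 18 of 31 (median 0.04), and NRF2 targets for 14 of 32 (-0.02).

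Skeletal muscle transcripts were far higher in WT replicate 5 than in the other exposed lungs. The mean of 9 measured markers was 7.05 log2 units above the mean over lungs there, against -1.01 to -0.38 in p53het lungs and -0.99 to -0.34 in the other WT lungs, and their summed signal was 61.1 times the 75th percentile, against at most 0.807 elsewhere. The 9 markers had lower estimates in p53het lungs with a median of -0.82, and without that array 6 of 9 were lower with a median of -0.08. Fatty acid oxidation genes, lower for 16 of 21 (median -0.07), split into 11 lower and 10 higher without that lung and 10 lower and 11 higher without p53het replicate 4, and their median was -0.02 without WT replicate 6.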

How the data were processed

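Gene expression was measured on 35 Agilent rat arrays with Cy3, 1 per rat, from 100 ng of RNA (RNA integrity above 6.90, per the labels' protocols). The deposited scanner files hold a background-corrected intensity on a linear scale for each of 62976 spots, and the submitters' processing notes name Agilent Feature Extraction 12.0.1.1. A second set deposited by the authors holds log2 values of 11555 probes with the median of every probe taken off. That is seen from its values, since row medians were 0, column medians ran from -0.083 to 0.069 and 11545 probes correlated with the scanner files at r = 0.994 to 0.999 within an array. No source used here gives the filter behind it. Left out were 4259 control spots and all spots that the scanner software marked as outliers.

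From the log2 intensity the 75th percentile over an array's non-control spots was subtracted. Spots of a probe were averaged, and a gene name was represented by its brightest probe. The filter asked for 5 arrays well above background and 3 measured arrays in every group, which left 24468 genes, 15233 with a symbol. All 35 arrays were fitted in 1 model, with a mean for each of 6 groups and slide as a fixed block, in limma 3.58.1 (lmFit, eBayes; R 4.3.3, data.table version 1.17.8). P-values were adjusted by Benjamini and Hochberg with a threshold of 0.05. Values after ± are standard errors, or SD where so named. Rats are separate animals, and the number of arrays limits the precision. Slide 2 held no p53het NM-403 array; the other 4 slides held both genotypes. Residuals correlated at a mean r of 0.214 over 7 pairs of the 11 arrays on a slide, against -0.144 over 48 other pairs. Replicate numbers do not pair the arrays (r from -0.223 to 0.404 over 5 pairs). No array was identical to another (0).

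The genes named were Cdkn1a and Mdm2, the 24 with a symbol and the smallest unadjusted p since none was called, up to 2 of each of 45 lists with the smallest p, and up to 4 of each interaction. Spp1 and the other genes that answered to Mitsui-7 were taken from the 24 other arrays, and lung markers, Cxcl3, Cxcl16, Ccdc113, clock genes, Spata17, Ubxn11, Duox1, Top2a, Cdk1, Birc5, Foxj1 and RT1-Bb were named after their values were seen. The members and lists were chosen with earlier results of these data known. Alternatives were other slide terms, scales, background corrections, filters, probe rules, array weights, the authors' values, the 11 arrays alone and leaving out each array. The fit was tested on simulated data. A result of the planned set is not reported here.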

Additional observations from a re-analysis of the deposited data

Results flagged for a closer look

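In all, 190 sets of values were checked, each a gene or a list mean in the p53het NM-403 or the WT NM-403 lungs. Of these, 12 had a lung far from the others of its group by Dixon's criterion. Chance alone gives about 1 in 20, so the number flagged is near that share. Some flags repeat each other, as a list and its own members. All values are log2 signals over the 75th percentile, or mean log2 deviations for lists.

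WT NM-403 replicate 3 stood apart in 5 genes. Pkib was at -2.49 there, against -1.74 to -1.58 in the other WT lungs, and Ccdc66 at -3.07, against -2.41 to -2.24. Sept7 was at -0.31, against 0.36 to 0.59. Nup210 was at 0.022, against -0.54 to -0.38, and Oaz2 at 3.38, against 2.98 to 3.12. In all 5 genes this lung lay on the side of the p53het lungs, 2 of which share slide 1 with it.

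WT NM-403 replicate 5 stood apart in muscle genes. The skeletal muscle list mean was 7.05 there, against -0.99 to -0.34 in the other WT lungs, Acta1, the skeletal muscle actin, was at 2.98, against -4.18 to -1.51, and Actn3, a fast-fibre actinin, at 2.27, against -6.63 to -5.34. Its mean of fatty acid oxidation genes was 0.45, against -0.11 to 0.04.

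WT NM-403 replicate 6, the dimmest array, had a mean of mitotic cell cycle genes of 0.37, against -0.20 to -0.04 in the other WT lungs. p53het NM-403 replicate 2 had a mean of ciliated cell markers of -0.29, against -0.07 to -0.03 in the other p53het lungs. p53het NM-403 replicate 5 had Mmp13, a collagenase, at -9.02, against -7.64 to -7.20. The log2 75th percentile of that array was 10.71, so this is a very low signal.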

How the results depend on the processing

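The count between p53het NM-403 and WT NM-403 lungs was 0 under every alternative run, except 1 with the mean of all probes of a gene (Wdr54, -0.79, adjusted p = 0.0322) and 1 with the 11 arrays alone and slide as a random block; the within-slide values give no count. Leaving out single arrays gave 0 to 0 (578 to 1037 at an unadjusted p under 0.05), and the replicate block gave 0 (845) and changed no other call of this comparison. Leaving out WT replicates 5 and 6 (585) or p53het replicates 2 and 3 (707), chosen after seeing the data, gave 0 as well. The 763 genes at an unadjusted p under 0.05 became 1530 with array weights and 1640 with normexp. For the difference of the responses to NM-403 against vehicle, 934 genes at that level became 5737 with normexp, with 0 called. Of 605 values of the 24 genes of smallest p, 604 kept their direction and 1 passed. Prss22 was lower in p53het in 25 of 25 alternatives (-1.12 to -0.65, adjusted p 0.0705 to 1.0).

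The 17 genes called between genotypes under Mitsui-7 became 2 without slide, 41 with slide as a random block, 9 with the replicate block, 5 with quantile normalization, 7 with the array median, 1 with normexp, 10 with the authors' values, 3 without the filter on dim probes, 38 with a strict filter, 11 with the mean of probes, 302 with array weights, and 1 to 134 without single arrays. The interaction with Mitsui-7 called 0, but 1 with the authors' values, 4 with array weights and 0 to 1 without single arrays, and vehicle controls called 0, but 1 with the strict filter, 5 with array weights and 0 to 1 without single arrays. NM-403 against vehicle called 942 in p53het, 372 without slide, 1456 with array weights and 445 to 1279 without single arrays, and 1857 in WT, 767, 3471 and 967 to 1879 without slide, with array weights and without single arrays.

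Signs turned for Fancd2 (-0.071), Chek1 (-0.087) and Cenpe (-0.072) with normexp, RT1-Bb (-0.19) with the mean of probes, Fam25a (-0.10 to 0.019 without single arrays) without WT replicate 1 (0.019) and without p53het replicates 2 and 3 (0.029), Nr1d1 without p53het replicates 2 and 3 (-0.24), and Mt2A without WT replicates 5 and 6 (0.000328). The cause was not tested. Signal over background limits dim genes, and 11 arrays limit small differences.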
